A study of Mus musculus with 3 samples.

Results

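The genes described here encode dual-specificity phosphatases that act on MAP kinases, and they were examined for H3K27ac, the acetylated form of histone H3 lysine 27 found at active promoters and enhancers, in tumour-infiltrating myeloid cells of mice given a CBP/EP300 bromodomain inhibitor. The members were the 8 genes Dusp1, Dusp2, Dusp4, Dusp5, Dusp6, Dusp7, Dusp10 and Dusp16. Every region of the deposited H3K27ac table whose gene list names a member was taken, which gave 17 of 22399 regions, and all 8 of the 13443 genes with a region were found. Of the 17 regions, 13 overlapped a promoter as the authors counted it and 4, called distal here, did not.

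The cells were myeloid-derived suppressor cells (MDSC), sorted by the CD45+CD11b+Ly6C+Ly6G+/-F4-80- gate from tumours of female SCID.beige mice aged 6 to 8 weeks. These mice carry no T or B lymphocytes of their own and have defective natural killer cells. The inhibitor group received GNE-781 at 25 mg/kg by oral gavage, in 2 doses a day for 7 days, and the vehicle group received MCT on the same schedule. All mice bore subcutaneous tumours. As tumour lines the protocol names MDA.MB.231-X1.1, of human breast origin, and CT26, of mouse colon origin, and both ChIP library titles carry the tag tnbc. How many mice were pooled into a library is not given in the labels. There was 1 H3K27ac library from GNE-781-treated mice and 1 from vehicle-treated mice, and a pooled input was not used here because the table has no column for it. With 1 library per treatment the differences describe these libraries, no test was possible, and the depth behind the signal is unknown. The gate takes in cells with and without Ly6G, so a change in the mix of cells and a change of acetylation per cell cannot be told apart.

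MAP kinases are switched on by phosphorylation of a threonine and a tyrosine in their activation loop, and dual-specificity phosphatases remove both phosphates. Dusp1, Dusp2, Dusp4 and Dusp5 encode inducible nuclear enzymes, Dusp6 and Dusp7 encode cytoplasmic enzymes that prefer ERK, and Dusp10 and Dusp16 encode enzymes that act on JNK and p38. In myeloid cells several of these genes are induced by the pathways they restrain and limit the production of inflammatory cytokines, Dusp1 being the best studied. CBP and EP300 are the acetyltransferases that place H3K27ac, and CBP is named for its binding to CREB, a factor that recognises the cyclic AMP response element (CRE).

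Promoter sequences of 4 members are shown first because member H3K27ac regions lie over them and they differ in the motifs they hold. RefSeq (GRCm38.p6) gives a window from 250 bp before to 50 bp after the gene start for 7 of the 8 members, and a window of Dusp4 was not used here. In the Dusp1 window (chr17:26508423-26508722, minus strand) capitals mark a full CRE, a further copy of the CRE core TGACG and an E-box. In the Dusp5 window (chr19:53528895-53529194, plus strand) they mark a pair of adjoining CArG boxes, the site bound by serum response factor, and a CRE core. In the Dusp10 window (chr1:184034131-184034430, plus strand) they mark GGGCGG in either orientation, and the Dusp6 window (chr10:99262981-99263280, plus strand) held none of the motifs searched and has no capitals.
Dusp1: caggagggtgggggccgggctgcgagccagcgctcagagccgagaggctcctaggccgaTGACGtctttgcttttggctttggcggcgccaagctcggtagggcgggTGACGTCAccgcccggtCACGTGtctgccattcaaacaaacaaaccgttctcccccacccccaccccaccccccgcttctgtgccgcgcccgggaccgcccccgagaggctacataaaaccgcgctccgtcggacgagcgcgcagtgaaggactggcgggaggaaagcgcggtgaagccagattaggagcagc
Dusp5: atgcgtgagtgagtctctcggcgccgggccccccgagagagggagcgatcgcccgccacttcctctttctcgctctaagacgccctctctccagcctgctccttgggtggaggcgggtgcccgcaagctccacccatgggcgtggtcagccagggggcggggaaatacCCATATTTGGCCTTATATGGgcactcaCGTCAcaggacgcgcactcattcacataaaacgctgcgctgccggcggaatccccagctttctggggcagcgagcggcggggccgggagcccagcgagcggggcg
Dusp10: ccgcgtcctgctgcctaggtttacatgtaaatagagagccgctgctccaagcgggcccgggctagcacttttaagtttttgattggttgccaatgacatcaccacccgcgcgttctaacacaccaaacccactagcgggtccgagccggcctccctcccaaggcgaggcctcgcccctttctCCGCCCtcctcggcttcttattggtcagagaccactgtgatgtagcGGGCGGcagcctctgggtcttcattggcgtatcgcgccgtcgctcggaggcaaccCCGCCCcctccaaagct
Dusp6: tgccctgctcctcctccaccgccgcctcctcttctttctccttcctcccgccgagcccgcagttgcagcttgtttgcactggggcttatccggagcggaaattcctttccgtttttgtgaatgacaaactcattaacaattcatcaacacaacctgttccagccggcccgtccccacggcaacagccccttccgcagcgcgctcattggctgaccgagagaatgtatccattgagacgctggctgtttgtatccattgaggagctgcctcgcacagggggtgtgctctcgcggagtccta

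The motifs were searched as exact letters on both strands. The full CRE TGACGTCA was found in 1 of the 7 member windows, that of Dusp1, with its first base 143 bp before the start, and in 1.79% of all 32851 windows. Its core TGACG, which a full CRE also contains, was found in Dusp1, Dusp2, Dusp5 and Dusp16, against 20.8% of all windows. The CArG box was found in Dusp5 alone among the members, 82 and 72 bp before the start, and in 1.63% of all windows. The Sp motif GGGCGG was found in 6 of 7, all but Dusp6, against 35.7% of all windows, and the E-box CACGTG in Dusp1 and Dusp2, against 7.15%. The AP-1 motif TGANTCA, the C/EBP motif TTGCNNCAA, the ETS motif CCGGAAG and the NF-kB site were found in 0 of the 7 member windows, against 7.81%, 2.08%, 8.86% and 4.51% of all windows. The member windows held from 57.3% (Dusp6) to 78.7% (Dusp7) G and C, and the shares of all windows are not matched for this. A match describes letters in these windows and is no evidence of binding.

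H3K27ac was lower with GNE-781 at all 17 member regions, as at 22325 of the 22399 regions of the table. Signal is fragment pileup, averaged by the authors over each region, and differences are log2(GNE-781 signal + 1) minus log2(vehicle signal + 1). The median signal of the member regions was 5.21 with GNE-781 and 21.0 with vehicle, and over all regions it was 4.67 with GNE-781 and 14.5 with vehicle. The median difference of the member regions was -1.77, between -2.27 at Dusp10 and -0.998 at the Dusp7 region 7179 bp upstream, and the median of all regions was -1.61 (quartiles -1.87 and -1.33). At least 2-fold lower were 16 of the 17 member regions (94.1%), close to the 93.4% of all regions, so this count is no result about the members. None was at least 2-fold higher, against 0.138% of all regions. With no pseudocount all 17 were at least 2-fold lower, the Dusp7 region included, whereas with peak signal that region again missed 2-fold (-0.54). It was followed by the Dusp2 region 7509 bp upstream, at -1.49.

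**Figure D1:**
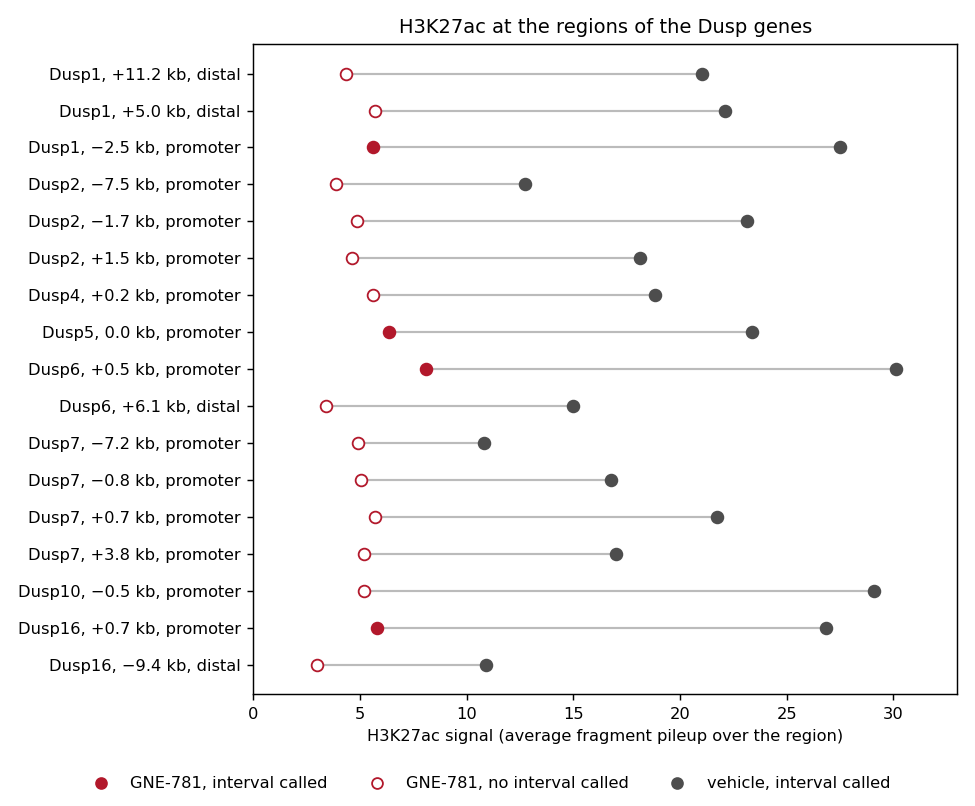
Average H3K27ac signal of each of the 17 member regions in the GNE-781 library (red, filled where an interval was called) and in the vehicle library (grey), with the distance of the region's centre from the gene start. The signals lie between 3 and 8.11 with GNE-781 and between 10.8 and 30.1 with vehicle, so the libraries do not overlap.

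A factor that is constant between the libraries is part of each of these differences, and whether the pileup includes the spike-in scaling is not known. Relative to the median of all regions, which was set to 0, the member regions had a median of -0.16, and 11 of the 17 were below 0, against 50% of all regions by construction. Stronger vehicle regions also had larger differences throughout the table: in 10 classes of vehicle signal the class median ran from -1.31 in the weakest to -2.05 in the strongest. Vehicle signal sets the class and is also a term of the difference, so class and difference are not independent. Set against the median of their own class, the member regions had a median of -0.06, with 9 of 17 below it. The members as a group therefore stood close to other regions of the same vehicle signal, and the account that follows is of how they differed among themselves.

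**Figure D2:**
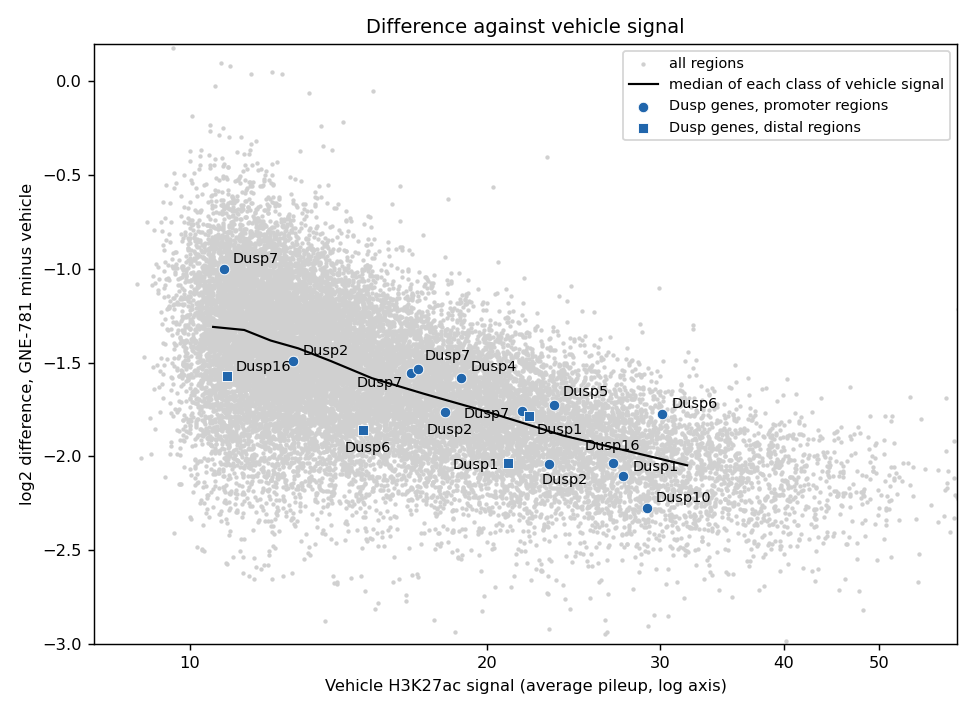
Log2 difference (GNE-781 minus vehicle) against vehicle signal on a log axis for all regions within the axes (grey), the median of each of 10 classes of vehicle signal (line) and the member regions (blue circles for promoter, squares for distal). Dusp10 lies 0.23 below the line of its class and the Dusp6 promoter 0.27 above it.

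Each gene is represented by its strongest region, the one whose signal, averaged over both libraries, was highest. For all 8 members this was a promoter region with a CpG island, and for all 8 the vehicle signal was above the median of all regions. The choice itself favours regions strong with vehicle, and the same shares over all genes were not computed. Neither count is therefore a result about the members. The vehicle order from high to low was Dusp6 (30.1), Dusp10 (29.1), Dusp1 (27.5), Dusp16 (26.9), Dusp5 (23.4), Dusp2 (23.1), Dusp7 (21.7) and Dusp4 (18.8). The order with GNE-781 was Dusp6 (8.11), Dusp5 (6.37), Dusp16 (5.81), Dusp7 (5.71), Dusp4 (5.64), Dusp1 (5.62), Dusp10 (5.22) and Dusp2 (4.87). Dusp6 thus led in both libraries, whereas Dusp10 stood second with vehicle and seventh with GNE-781. Without replicates it is not known which neighbours in these orders differ beyond error.

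Dusp1, a nuclear phosphatase of p38 and JNK that is induced by stress and glucocorticoids, had the broadest cover of the members, 16675 bp in 3 regions, more than 97.3% of all genes with a region. Its promoter region (chr17:26505870-26516055, GRCm38) is 10185 bp long, longer than 99.7% of all regions, and spans the promoter window with the CRE. Its signal was 5.62 with GNE-781 and 27.5 with vehicle, which is 4.89-fold lower with GNE-781 as a plain ratio and a log2 difference of -2.11, or -0.50 relative to the median of all regions. Its highest pileup was 21 with GNE-781 and 123 with vehicle (-2.49), the highest vehicle peak of the 17 regions, and an interval was still called with GNE-781. The other regions of Dusp1 are distal, downstream of the gene, and overlap the long noncoding RNA Gm34455 in RefSeq. The nearer one (chr17:26501540-26505427) lies 442 bp from the promoter region and had 5.70 with GNE-781 and 22.1 with vehicle (-1.79). The farther one (chr17:26495971-26498574), 11200 bp from the start, had 4.37 with GNE-781 and 21.0 with vehicle (-2.04). Neither was called with GNE-781, so the only Dusp1 interval called in that library was at the promoter.

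Dusp2, a nuclear phosphatase found mainly in blood cells, had 3 promoter regions, all of them also listed for Astl, whose start lies downstream of it. The region that ends just past the gene start (chr2:127332545-127336377) had 4.87 with GNE-781 and 23.1 with vehicle (-2.04). It is followed after a gap of 38 bp by a region over the gene body (chr2:127336416-127338967) with 4.63 with GNE-781 and 18.1 with vehicle (-1.77). The region 7509 bp upstream (chr2:127327512-127329789) had 3.89 with GNE-781 and 12.7 with vehicle (-1.49). The difference was thus largest next to the start and smallest at the weakest region, as over the table as a whole, and no Dusp2 region was called with GNE-781.

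Dusp4 and Dusp5 had 1 region each, at the gene start. Dusp4, a nuclear phosphatase of ERK, JNK and p38, had 5.64 with GNE-781 and 18.8 with vehicle (chr8:34806342-34809291), a difference of -1.58, the smallest among the strongest regions, and 0.026 once recentred on the median of all regions, so its direction turns with that scaling. The region is also listed for Gm9648. Dusp5, a nuclear phosphatase of ERK, had 6.37 with GNE-781 and 23.4 with vehicle (chr19:53528316-53530309), a log2 difference of -1.73, and 3.67-fold lower with GNE-781. This region spans the window with the CArG boxes and overlaps 2 CpG islands. It was called with GNE-781, where its highest pileup was 19, against 69 with vehicle.

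Dusp6 is a feedback inhibitor of ERK that is itself switched on by ERK signalling. Its promoter region (chr10:99260734-99266766) is 6032 bp long and covers the start and most of the gene body. The signal was 8.11 with GNE-781 and 30.1 with vehicle (-1.77), the highest of the members in each library, and 96.0% of all regions had a lower GNE-781 signal. Its highest pileup of 29 with GNE-781 was also the highest of the 17 regions, against 85 with vehicle (-1.52), and an interval was called. In its class of vehicle signal 89.2% of regions had a lower difference, so its difference was smaller than that of most regions of the class. The class runs from a vehicle signal of 26.9 to 84.9, and Dusp6 lies near its lower end. The distal region 6090 bp downstream of the start (chr10:99268721-99269922), which overlaps the noncoding RNA Gm34921, had 3.40 with GNE-781 and 15.0 with vehicle (-1.86) and was not called with GNE-781. Relative to its own class this distal region stood at -0.28, on the other side from the promoter at 0.27.

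Dusp7, the other cytoplasmic ERK phosphatase, had 4 regions, the most of any member, where the median gene had 2. The RefSeq start used for the promoter window falls in a gap of 207 bp between a region upstream (chr9:106367186-106368565) and a region inside the gene (chr9:106368773-106369909). The RefSeq gene itself begins at 106368560, within the last bases of the upstream region. The upstream one had 5.06 with GNE-781 and 16.8 with vehicle (-1.55), and the inner one, the strongest of the gene, had 5.71 with GNE-781 and 21.7 with vehicle (-1.76). The region over the rest of the gene (chr9:106370422-106374469) had 5.21 with GNE-781 and 17.0 with vehicle (-1.54). The region 7179 bp upstream (chr9:106360575-106362331) had 4.93 with GNE-781 and 10.8 with vehicle, 2.20-fold lower as a plain ratio, and 93.5% of all regions had a lower difference. That region had the lowest vehicle signal of the 17, and with GNE-781 all 4 regions of Dusp7 came to within 4.93 to 5.71. No region of Dusp7 was called with GNE-781.

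Dusp10, which acts on JNK and p38, had a single region over its start, shared with 1700056E22Rik, whose start lies within the same region (chr1:184032741-184035282). The signal was 5.22 with GNE-781 and 29.1 with vehicle, 5.57-fold lower with GNE-781 and a log2 difference of -2.27, the largest of the 17 regions, with 3.58% of all regions lower. Its highest pileup was 11 with GNE-781 and 75 with vehicle (-2.66). In its class of vehicle signal 17.1% of regions had a lower difference, so it was not among the extremes there. That class runs from a vehicle signal of 26.9 to 84.9, and Dusp10 lies near its lower end. Its rank among regions of closer vehicle signal was not computed. Dusp10 and Dusp6 had near-equal vehicle signals, 29.1 and 30.1, but the GNE-781 signal of Dusp6 was 1.56 times that of Dusp10, and an interval was called at Dusp6 and not at Dusp10.

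Dusp16, which acts mainly on JNK, had a promoter region (chr6:134790993-134792809) with 5.81 with GNE-781 and 26.9 with vehicle (-2.03), called with GNE-781 with a highest pileup of 17, against 91 with vehicle (-2.35). Its distal region (chr6:134801721-134802340) is 619 bp long, the shortest of the 17. It lies 9402 bp upstream of the start the table uses, but within Dusp16 as RefSeq draws the gene. Its signal was 3 with GNE-781, the lowest of the 17, and 10.9 with vehicle (-1.57), and it too was not called with GNE-781.

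**Figure D3:**
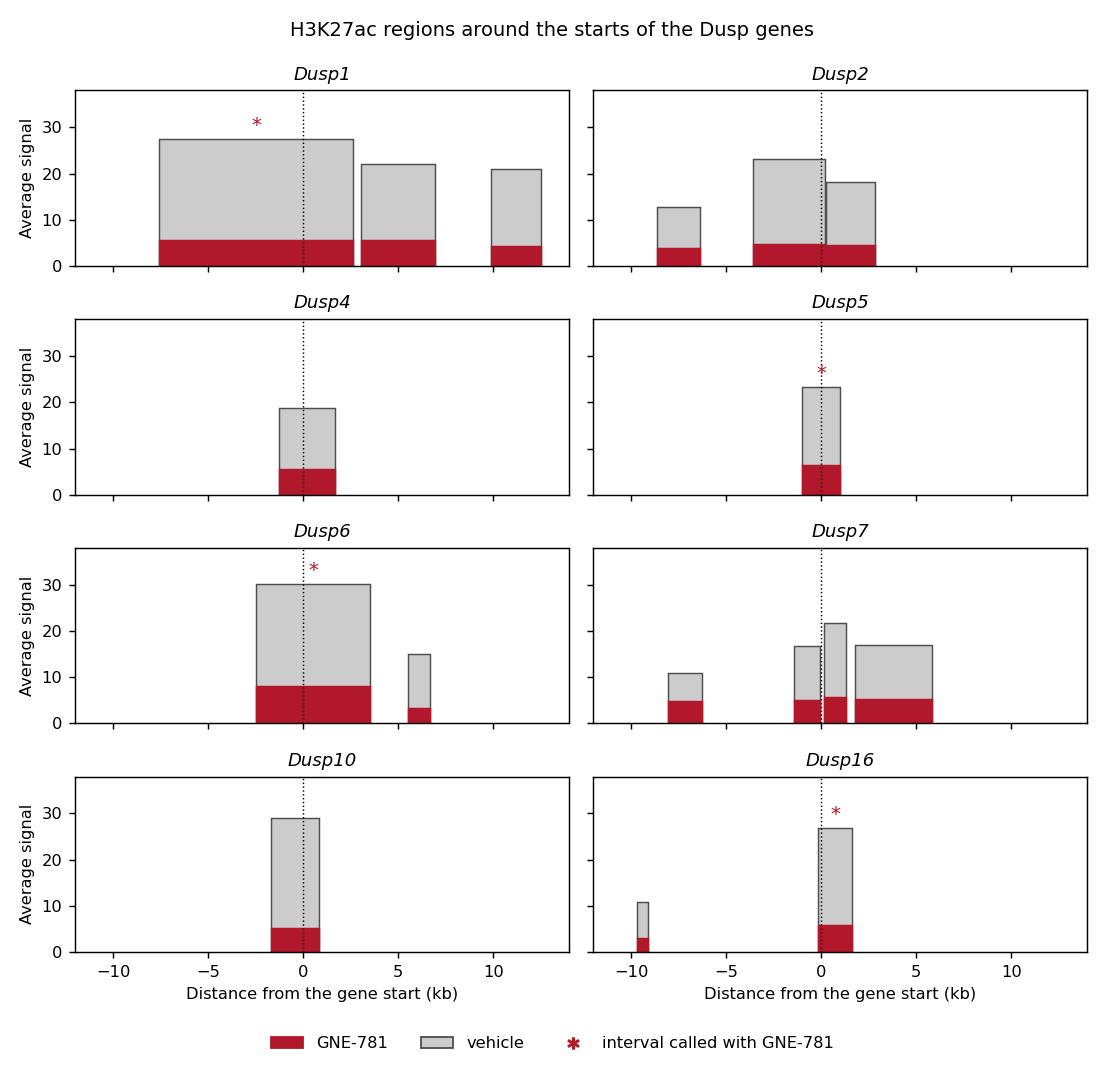
Member regions around the gene start (dotted line, upstream to the left), each drawn at its length in kb, with the average signal of the GNE-781 library (red) in front of that of the vehicle library (grey). Dusp1 has the longest cover, 16675 bp, Dusp7 is split into 4 regions around its start, and asterisks mark the 4 regions still called with GNE-781.

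Intervals called with GNE-781 were found at 4 of the 17 member regions (23.5%), against 10.3% of all regions. With vehicle an interval was called at all 17, as at 22310 of all 22399 regions, so that count is no result about the members. The 4 called with GNE-781 were the promoter regions of Dusp1, Dusp5, Dusp6 and Dusp16, each with a CpG island. Of the 13 member promoter regions 4 were called with GNE-781 (30.8%), against 15.6% of all promoter regions, and of the 10 with a CpG island 4 were (40.0%), against 19.9% of such regions in the table. None of the 4 distal member regions was, against 4.48% of all distal regions. The vehicle peaks of the 4 called regions were 69 to 123, and among the regions not called with GNE-781 the highest vehicle peak was that of Dusp10, at 75. The shares above are not matched for vehicle signal. In the strongest class of vehicle signal, which holds the promoter regions of Dusp1, Dusp6 and Dusp10, 59.4% of regions were called with GNE-781. These small counts do not set the members apart.

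**Figure D4:**
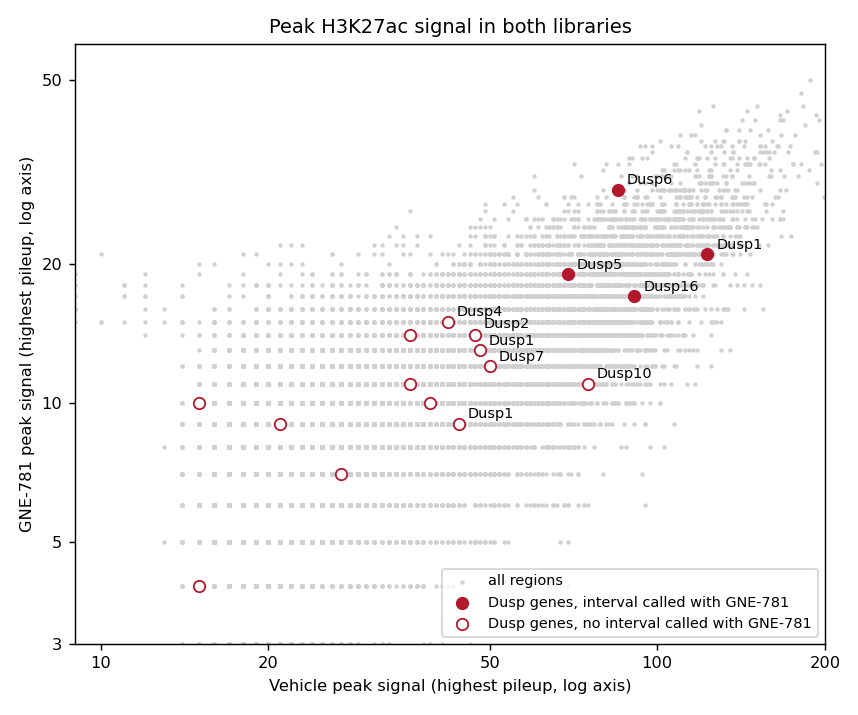
Highest fragment pileup of each region with GNE-781 against that with vehicle, both on log axes, for all regions within the axes (grey) and the 17 member regions (filled where an interval was called with GNE-781). The 4 called regions have GNE-781 peaks of 17 to 29 and the other 13 have peaks of 4 to 15, among them Dusp10 with a vehicle peak of 75.

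Promoter and distal regions of the members overlapped in their differences. By the authors' window the promoter regions include those centred 7509 bp upstream of Dusp2 and 7179 bp upstream of Dusp7. Both are farther from the member's start than the Dusp6 and nearer Dusp1 distal regions (6090 and 4989 bp). They had the smallest member differences, -1.49 and -0.998. Of the 4 distal regions 2 are those of Dusp1. With promoter as within 1000 bp of the start (7 regions), the medians differed by 0.017, against 0.065 here. The 13 promoter regions had a median difference of -1.76, with 12 at least 2-fold lower, and the 4 distal regions -1.82, with all 4 at least 2-fold lower; 95% of all promoter regions and 91.8% of all distal regions passed that size. In the table as a whole the order was the other way, with -1.71 at promoter and -1.52 at distal regions. The 4 distal member regions had vehicle signals from 10.9 at Dusp16 to 22.1 at Dusp1, with a median of 18.0, against 12.9 for all distal regions. Set against the median of their own class of vehicle signal, the distal member regions had a median of -0.27, with 3 of 4 below it, and the promoter member regions 0.11, with 6 of 13 below it. By the enzymes' roles, the 8 regions of the inducible nuclear phosphatases had a median of -1.78. The 6 regions of the cytoplasmic ERK phosphatases had -1.66, and the 3 regions of Dusp10 and Dusp16 had -2.03. The ranges of the 3 groups overlapped. Dusp1 and Dusp4, which also act on JNK and p38, are counted in the nuclear group. Below the median of their class of vehicle signal were 5 of the 8 nuclear and 1 of the 6 cytoplasmic regions. So were all 3 regions of Dusp10 and Dusp16, against 11199 of all 22399 regions. Of the 6 cytoplasmic regions 4 belong to Dusp7, and regions of 1 gene are not replicates of a role. The Dusp16 promoter, at a vehicle signal of 26.86, lies at the upper edge of its class (26.9). The median of the next class is -2.05, below the -2.03 of that region.

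The 7 lists compared, of other dual-specificity phosphatases and of other MAP kinase pathway genes, had similar differences. The list of dual-specificity phosphatases also holds enzymes with other substrates, such as Dusp11. Of 94 genes 77 had a region, and 75 of these were at least 2-fold lower at their strongest region, where 96.1% of all genes with a region were. The 8 members had a median of -1.90, and all 8 were at least 2-fold lower, beside a median of -1.78 over all 13443 genes, and 4 of the 8 were below that median. The strongest region was called with GNE-781 in 4 of the 8 members and in 22 of the 77 other genes, against 23.2% of all genes. These shares are not matched for vehicle signal, and in its strongest class 59.4% of regions were called.

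Among the 15 other dual-specificity phosphatase genes with a region (of 21), the median was -1.73 and all 15 were at least 2-fold lower. Dusp11, which removes phosphates from RNA, was the lowest at -2.35 with 10.4 with GNE-781 and 57.3 with vehicle, and Dusp18 the highest at -1.18 (0.43 recentred). No region was listed for Dusp8 and Dusp9, MAP kinase phosphatases of the same family, nor for Dusp14, Dusp15, Dusp21 and Dusp26. The 6 other phosphatases of the pathway had a median of -1.96, all at least 2-fold lower, from Ppp2cb, a catalytic subunit of protein phosphatase 2A, at -2.49 to Ppm1d at -1.49 (0.12 recentred). Averaged over its 3 regions, Ppp2cb stood at -1.65.

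The member phosphatases oppose the MAP kinases and, through them, the kinase tiers above. The 11 MAP kinase genes with a region had a median of -1.70, with 10 at least 2-fold lower, and 2 of the 11 were below the median of all genes. Mapk6 was the lowest at -2.18. Mapk13, which encodes p38 delta, was the highest, with 9.83 with GNE-781 and 16.0 with vehicle (-0.65; 0.95 recentred), and its region was still called with GNE-781. The 7 MAP2K genes had a median of -1.64, with 6 at least 2-fold lower, from Map2k1, which encodes the ERK kinase MEK1, at -2.00 to Map2k4 at -0.89 (0.71 recentred). The 19 MAP3K and RAF genes had a median of -1.77, all at least 2-fold lower, from Map3k2 at -2.27 to Map3k12 at -1.09 (0.52 recentred). The Map3k12 region is also listed for another gene, and its centre lies 6340 bp from the Map3k12 start.

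Downstream of the MAP kinases, the 10 MAPK-activated kinase genes had a median of -1.68, all at least 2-fold lower. They ran from Mapkapk3 at -2.08 to Rps6ka3 at -1.32 (0.28 recentred). The Rps6ka3 region is also listed for another gene, and its centre lies 116416 bp from the Rps6ka3 start. The 9 other ERK feedback inhibitor genes had a median of -1.77, all at least 2-fold lower, from Spred2, a suppressor of the RAS to RAF step, at -2.08 to Spry2, a Sprouty inhibitor of receptor signalling, at -1.12 (0.48 recentred). Of these 77 genes, those near to Dusp10 in the signals of both libraries included Mapkapk3 (5.77 with GNE-781 and 27.5 with vehicle) and Mapk6 (6.02 with GNE-781 and 30.9 with vehicle). Those nearest to Dusp4 were Dusp12 (5.76 with GNE-781 and 19.4 with vehicle), Rps6ka4 (5.43 with GNE-781 and 19.3 with vehicle) and Map3k10 (5.44 with GNE-781 and 17.6 with vehicle). The region of Dusp12 is also listed for another gene, and its centre lies 18055 bp from the Dusp12 start. The nearness is that of 1 strong or middling promoter region in each of 2 libraries and says nothing of shared control.

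**Figure D5:**
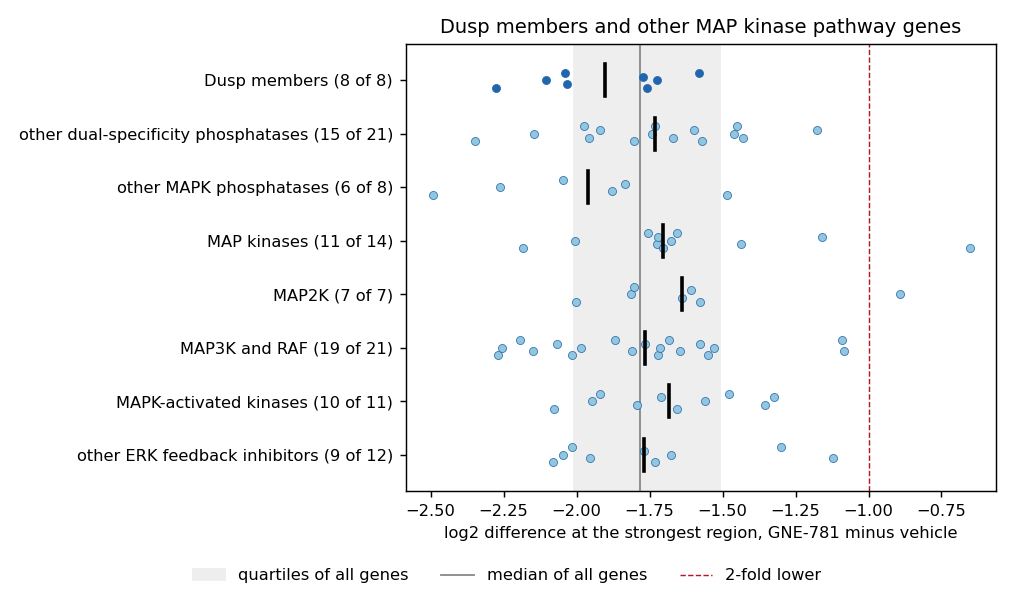
Log2 difference (GNE-781 minus vehicle) at the strongest region of each gene. Shown are the 8 members (dark blue) and the 7 lists of other phosphatase and pathway genes (light blue). Also drawn are the list median (black bar), the median and quartiles of all genes (grey) and the 2-fold mark (dashed). The members lie between -2.27 and -1.58, and Mapk13 and Map2k4 lie to the right of the mark.

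The regions of the table covered the identity genes of the sorted cells. Of the 6 gate genes 5 had a region, with none listed for Ly6c1, and Adgre1, which encodes the F4/80 antigen the gate selects against, was listed under its older symbol Emr1 with 3.70 with GNE-781 and 12.8 with vehicle. All 10 neutrophil genes and 5 of 6 monocyte genes had a region, Ccr2 being the exception. A region was listed for 2 of 8 lymphocyte genes (Cd3g and Cd79a) and for 2 of 7 genes of tumour epithelium, stroma and endothelium (Krt8 and Pecam1), and no region was listed for Cd3e, Ncr1, Epcam or Col1a1. The strongest regions of Cd3g and Cd79a are each also listed for another gene, with centres 14973 and 5474 bp from their starts. Those of Krt8 and Pecam1 are distal, centred 8405 and 41007 bp away. That of the gate gene Itgam, also listed for another gene, is centred 69437 bp from its start. The part of other cell types in the member regions was not tested.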

How the data were processed

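H3K27ac was measured by ChIP-seq, as 150 bp paired reads of fragments near 380 bp after fixation in 1% formaldehyde, per the labels' protocols. A fly spike-in (Drosophila chromatin with an H2A.v antibody) was included, per the labels' protocols. BWA and SICER and the builds hg19 and dm3 are named in the submitters' processing notes, without versions or settings. The deposited table gives for each merged region the average and peak signal of each library (fragment pileup) and whether an interval was called. Of 27781 region and gene pairs, 99.99% matched the chromosome of the gene in GRCm38, which alone does not separate builds. The gene start that the table uses lay within 1 kb of the RefSeq start in 86.9% of pairs. For the members the gap was at most 161.5 bp, so that build is named. No deposited average signal lay between 0 and 1, and the average times the number of 32 bp bins, or 1 bin fewer, was whole within a rounding of 0.0005 per bin in 50.1% of regions with GNE-781 and 95.7% with vehicle, as in a mean over bins that hold fragments; such a mean overstates weak signal. Whether a region is a promoter region was matched, counting overlap with the 7500 bp before and the 2500 bp after a start, in 99.99% of regions.

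From the deposited signal, log2 differences with a pseudocount of 1 were computed (Python 3.11.15, pandas 2.3.3) for all regions, and the computation was tested on simulated data. Without replicates there is no test, and the 2-fold size rule stands in its place. The pseudocount understates differences of weak regions. A gene took its strongest region among all listed for it, which can lie far from its start or be listed for other genes too. The members and lists were chosen with earlier results of these data known. Named were all members, the genes that share their regions, the lowest and highest gene of each list and the 3 genes nearest to the lowest and the highest member; Dusp8, Dusp9 and marker genes were also named as examples. Some genes that the rule takes are not reported here, and counts and medians include them. Of the list genes, Adgre1 and Peak1 were found under older symbols. Alternatives were peak signal, other pseudocounts, recentring, a filter on weak regions, other fold sizes, another promoter definition and other summaries per gene.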

Additional observations from a re-analysis of the deposited data

How the results depend on the processing

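The median of the 17 member regions, the median of the 8 member genes, the single members, the promoter and distal contrast, the counts and the list medians were recomputed in 132 alternative values, of which 113 kept their direction and their side of 2-fold (counts: within 1.5 times), 18 moved and 1 reversed. All but 1 of these 19 came from recentring on the median of all regions. It left the member regions at -0.16, the member genes at -0.30 and 0 regions at least 2-fold lower, and it reversed Dusp4 to 0.026. Recentred, the lists stood at -0.13 (other dual-specificity phosphatases), -0.36 (other MAPK phosphatases), -0.10 (MAP kinases), -0.034 (MAP2K), -0.16 (MAP3K and RAF), -0.077 (MAPK-activated kinases) and -0.16 (other ERK feedback inhibitors). Set against the median of the same class of vehicle signal, the member regions stood at -0.058. Which of these scalings is right was not tested. Dusp10 was the lowest member and Dusp4 the highest with peak signal (-2.66 and -1.43) and with no pseudocount (-2.48 and -1.74), as in the values reported; when all regions of a gene were averaged, Dusp7 was the highest at -1.46. No paired analysis was possible because each treatment has 1 library. The depth is unknown, so no limit of detection can be given, and no replicate could be left out. Several of the 113 values could not have changed. The strongest region of each member is a strong promoter region. Promoter regions alone and the filter on weak regions therefore left the member genes as they were. Recentring cannot change the promoter and distal contrast, and averaging cannot change a gene with 1 region.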

Other observations

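Promoters with a full CRE, the motif found in the Dusp1 window, were also described across the table. In 293 regions that cover a RefSeq gene start whose window holds TGACGTCA, the median signal was 6.05 with GNE-781 and 24.8 with vehicle, and the median difference was -1.91. In 7164 regions that cover a gene start without it, the median signal was 5.40 with GNE-781 and 19.7 with vehicle, and the median difference was -1.75. Set against regions of the same class of vehicle signal, the medians were -0.01 with the motif and 0.03 without. Intervals were called with GNE-781 in 32.1% of the regions with the motif and in 19.3% of those without. For the CArG box of the Dusp5 window, 107 regions with it had a median difference of -1.83, and 7350 without it had -1.76. Regions with either motif thus stood near other promoters of the same vehicle signal, and the promoter regions of Dusp1 (-2.11) and Dusp5 (-1.73) lay on either side of these medians.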
